A study of Mus musculus with 48 samples.

Results

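The 40 genes described here encode parts of the lysosome and of the autophagy machinery. They were taken by symbol from the deposited expression table, where all 40 were found among 24444 genes, and all 40 passed the filter on low values in every comparison. By role they comprise 5 lysosomal membrane proteins, 11 proteins of the lysosomal lumen, 5 subunits of the lysosomal proton pump, the transcription factor Tfeb, 8 genes of autophagy initiation and nucleation, 4 genes of ATG8 conjugation, 4 ATG8 proteins and 2 cargo receptors.

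The expression values came from RNA-seq of the cerebral cortex of 48 male C57BL/6J mice (1 hemisphere per mouse). Wild-type (WT) littermates were compared with Chd8 V986*/+ mice (HET), at embryonic day 14.5 (E14.5), 1 month, 6 months and 12 months, with 6 mice in each of the 8 groups. HET mice carry 1 WT allele and 1 CRISPR/Cas9-made allele with stop codons at V986 and E987 of Chd8, in every tissue and from conception, and they descend from a single founder male. The comparison of genotypes at each age and of ages within each genotype asks when and where loss of 1 Chd8 copy, or age, changes expression.

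Lysosomes are acidic organelles in which hydrolases break down lipids, glycans and proteins. A membrane ATPase pumps protons into the lumen, and membrane proteins such as LAMP1 and LAMP2 line the inner face of the organelle. In macroautophagy, a kinase complex and a lipid kinase complex start a double membrane, conjugation enzymes attach ATG8 proteins to it, receptors tether cargo to ATG8, and the closed vesicle fuses with a lysosome. TFEB, a basic helix-loop-helix factor, binds a palindromic E-box motif in the promoters of many of these genes. Neurons and glia depend on the pathway to clear proteins and organelles, and loss of several of these genes causes lysosomal storage disease with brain involvement.

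The E-box is shown in the members that hold its longer form, TCACGTGA, close to the start of the gene, because it is a sequence feature shared by members of different roles that the choice of genes did not use. RefSeq promoter windows of 300 bases (250 before to 50 after the start, GRCm38.p6) were matched by symbol for 33 of the 40 members. Npc1, Ctsb, Atp6v1b2, Atp6v1h, Becn1, Atg12 and Map1lc3a had no match. The motifs are palindromes, so a search of one strand covers both, and the shorter one lies inside the longer. CACGTG was found in 14 of the 33 members, in 19 of 100 other pathway genes with a match and in 8.09% of all 27025 genes with a window. TCACGTGA was found in 7 of the 33 members, in 7 of the 100 other pathway genes and in 304 of the 27025 genes (the 2 motifs were in 7.15% and 0.974% of the 32851 single windows). The longer form with a further G before it and C after it was in 0 of the 33 members, in 4 of the 100 other pathway genes and in 0.37% of all genes. The stretches below run 5′ to 3′ along the gene, with the motifs in capitals.
Mcoln1: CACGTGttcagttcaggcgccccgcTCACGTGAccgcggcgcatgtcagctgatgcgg
Ctsa: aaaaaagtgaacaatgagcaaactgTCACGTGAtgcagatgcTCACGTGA
Ctsd: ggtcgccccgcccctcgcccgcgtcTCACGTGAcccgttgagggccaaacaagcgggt
Gla: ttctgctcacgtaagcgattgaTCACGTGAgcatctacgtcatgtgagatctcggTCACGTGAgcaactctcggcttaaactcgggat
Atp6v0d1: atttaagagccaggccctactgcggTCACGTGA
Atp6v1a: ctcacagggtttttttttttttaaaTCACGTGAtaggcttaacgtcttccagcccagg
Atg3: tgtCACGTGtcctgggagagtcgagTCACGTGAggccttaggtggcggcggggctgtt

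In GRCm38.p6 these stretches are chr8:3500448-3500505 on the plus strand for Mcoln1, chr2:164833735-164833784 on the plus strand for Ctsa and chr7:142387894-142387951 on the minus strand for Ctsd. The Gla stretch is chrX:134601168-134601255 on the minus strand, and that of Atp6v0d1 is chr8:105566061-105566093 on the minus strand. Those of Atp6v1a and Atg3 are chr16:44139359-44139416 on the minus strand and chr16:45158732-45158789 on the plus strand. Ctsa and Gla hold 2 copies of TCACGTGA each, and the other members hold 1. Counted from the start site, the first base of the motif lay at -46 in Mcoln1, -13 and 5 in Ctsa, -99 in Ctsd, -228 and -195 in Gla, -4 in Atp6v0d1, -132 in Atp6v1a and -72 in Atg3. A match describes the letters of the reference and does not show binding.

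Levels are variance-stabilizing transformation (VST) values on a log2 scale, so a difference of 1 is about a 2-fold change, less exactly so for low genes. The floor of the scale, where genes without reads lie, was 2.1433. Differences are tested with limma across all genes, called at a Benjamini-Hochberg adjusted p (adjp) below 0.1, and levels are not compared between genes. Chd8 itself separated the genotypes at each age, with HET levels below all WT levels in 6 of 6 mice (smallest possible exact permutation p = 0.0022 at each age). Its HET minus WT difference, in order of age, was -0.63, -0.67, -0.64 and -0.54 (limma adjp = 0.0261, 3.01e-06, 1.07e-07 and 0.00261). Replicates 1 to 3 and replicates 4 to 6 had the same mean over the 48 samples, but not within a group. There the members' median absolute difference between these sets ran from 0.033 to 0.105. Values from each set alone are given for some results only, so their absence does not mean that the sets gave the same value. At E14.5, 3 WT libraries had higher means of 18 midbrain, hindbrain and spinal cord markers (5.94, 6.02 and 7.60) than all HET libraries, and values without these 3 are given where a result rests on them. The summed level of these 18 markers ran from 63.5 to 137 in WT mice and from 65.3 to 92.5 in HET mice, where Hoxa2, Hoxa3, Hoxb3, Hoxc4 and Hoxd3 were within 0.5 of the floor. In bulk tissue, a lower level from fewer cells of a type and one from less RNA per cell cannot be told apart.

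Most lysosome and autophagy genes rose between E14.5 and 1 month in both genotypes. In WT mice 31 of 40 members rose and 7 fell, against 44.1% and 41.9% of all genes tested, and in HET mice 31 rose and 7 fell, against 44.1% and 41.8%. Of the WT rises, 15 were by at least 1 on the log2 scale, a change that 22.7% of all genes made, and likewise 15 of the HET rises, beside 22.9%. The members' median difference was 0.81 in WT mice and 0.84 in HET mice, beside 0.04 over all genes tested in each. Atg12 and Atg5 passed in neither genotype. With samples centred on their median gene, both were called lower in WT and HET mice. Atg12 then differed by -0.26 and -0.27 (limma adjp = 0.000633 and 0.000307) and Atg5 by -0.29 and -0.33 (adjp = 9.41e-05 and 1.06e-05). Quantile normalization called Atg5 lower in HET mice alone (-0.11, limma adjp = 0.0953).

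**Figure D1:**
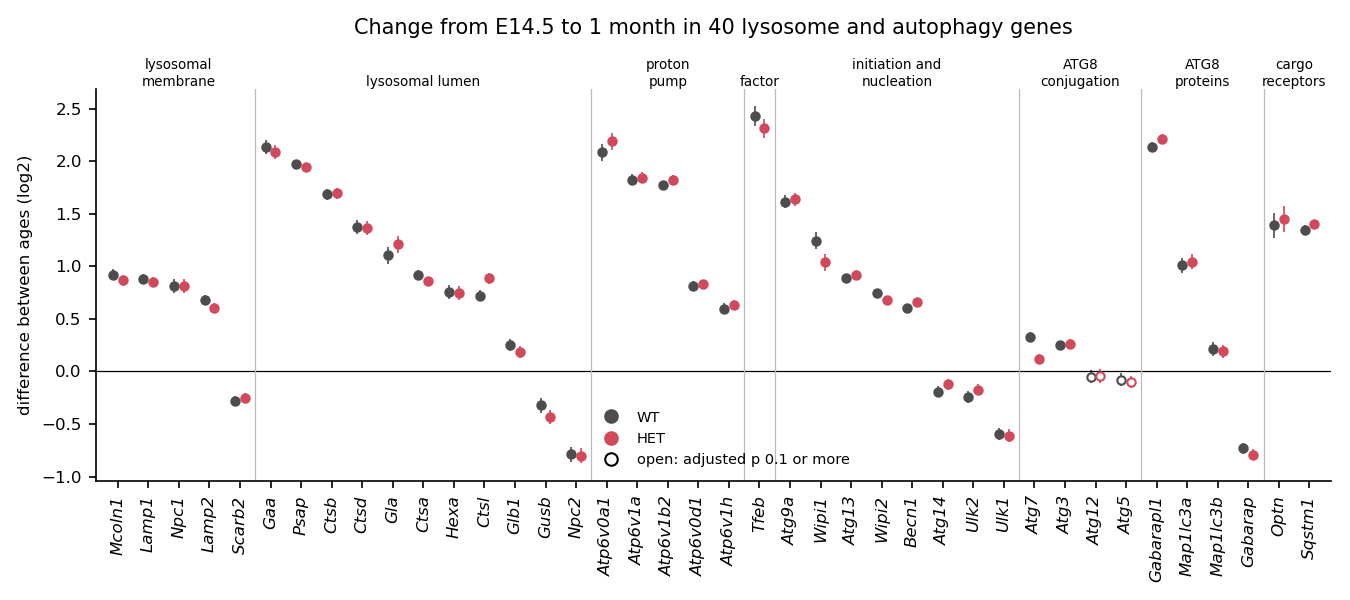
Change from E14.5 to 1 month (difference on the log2 scale, vertical axis) for each of the 40 genes, grouped by role, in WT (grey) and HET (red) mice; bars are the SE from limma and open points have an adjusted p of 0.1 or more. The proton pump subunits lie between 0.60 and 2.19, Tfeb is at 2.43 and 2.31, and 7 genes lie below 0 with filled points.

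Tfeb, which activates lysosomal and autophagy genes, had the largest rise of the 40. Its level (lowest, median and highest of 6 mice) was 5.33, 5.54 and 5.85 in WT mice at E14.5 and 7.87, 7.95 and 8.32 at 1 month, and the HET mice went from 5.43, 5.57 and 5.87 to 7.66, 7.93 and 8.10. The ages did not overlap in either genotype. The difference was 2.43 in WT mice (SE 0.092, limma adjp = 1.91e-28, 5.38-fold) and 2.31 in HET mice (adjp = 1.3e-27).

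The V-type ATPase acidifies the lysosome, and 5 of 5 of its member subunits rose, beside 44.1% of all genes in each genotype. Their differences ran from 0.60 to 2.08 in WT mice and from 0.63 to 2.19 in HET mice. Atp6v0a1, a subunit of the membrane sector, stood at 11.41, 11.84 and 12.00 in WT mice at E14.5 and at 13.76, 13.81 and 13.93 at 1 month. Its rise was 2.08 in WT mice (SE 0.080, limma adjp = 3.66e-28) and 2.19 in HET mice (adjp = 4.59e-29). Atp6v1a and Atp6v1b2, the catalytic and the nucleotide-binding partner subunits of the ATP-hydrolysing sector, rose by 1.83 and 1.77 in WT mice. Of the 13 other pump genes, 11 rose and 2 fell in WT mice, beside 44.1% and 41.9% of all genes. Atp6v1g2, a subunit form found in neurons, led the rises at 4.24 (SE 0.0915, limma adjp = 1.9e-38).

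In the lysosomal lumen 9 of 11 members rose and 2 fell in each genotype, beside 44.1% and 41.9% of all genes in WT mice and 44.1% and 41.8% in HET mice. Gaa, the acid alpha-glucosidase that degrades glycogen, went from 10.48, 10.81 and 10.93 to 12.76, 12.88 and 12.98 in WT mice. It rose by 2.13 in WT mice (SE 0.065, limma adjp = 3.25e-32) and by 2.08 in HET mice (adjp = 7.6e-32). Psap, the precursor of the saposins that help degrade sphingolipids, had the lowest adjusted p of the members. Its WT levels were 13.11, 13.19 and 13.24 at E14.5 and 15.12, 15.15 and 15.21 at 1 month, a rise of 1.97 (SE 0.038, limma adjp = 1.18e-40). Ctsb and Ctsd, both lysosomal proteases, rose by 1.69 and 1.37 in WT mice. Npc2, a soluble carrier of cholesterol, went the other way, from 11.19, 11.27 and 11.47 to 10.43, 10.50 and 10.63, and fell by 0.79 in WT mice (limma adjp = 2.52e-14) and by 0.80 in HET mice (adjp = 1.58e-14). Gusb, which removes glucuronic acid, fell by 0.32 and 0.43.

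Of the membrane proteins, 4 of 5 rose in each genotype, by 0.68 to 0.92 in WT mice, beside 44.1% of all genes that rose in each genotype. Among them Npc1, which works with Npc2 to export cholesterol, rose by 0.81 in each genotype (SE 0.063). Scarb2, the receptor that carries glucocerebrosidase to the lysosome, fell by 0.28 in WT mice and by 0.25 in HET mice (limma adjp = 1.01e-06 and 6.01e-06). Npc1 and Npc2 thus moved in opposite directions over this step.

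The genes of autophagy initiation and nucleation divided between 5 that rose and 3 that fell in each genotype. Over this step 44.1% of all genes rose and 41.9% fell in WT mice, and 44.1% and 41.8% in HET mice. Ulk1, the kinase that starts autophagy, went from 11.83, 12.05 and 12.11 to 11.26, 11.48 and 11.52 in WT mice and fell by 0.59 (SE 0.060, limma adjp = 1.23e-12), and it fell by 0.61 in HET mice. Its paralog Ulk2 and Atg14, a subunit of the lipid kinase complex, fell by 0.24 and 0.19 in WT mice. The highest rise of this group was that of Atg9a, the lipid scramblase of the growing membrane, at 1.62 in WT mice and 1.64 in HET mice. Members of one initiation complex thus differed in direction, since Atg13, a partner of Ulk1, rose by 0.89 in WT mice.

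ATG8 proteins are the small proteins that are linked to the autophagic membrane, and the 4 members differed widely. Gabarapl1 went from 11.37, 11.62 and 11.81 to 13.69, 13.72 and 13.83 in WT mice and rose by 2.13 (SE 0.050, limma adjp = 6.04e-37), and by 2.21 in HET mice (adjp = 1.35e-37). Its close relative Gabarap went from 12.02, 12.04 and 12.27 to 11.25, 11.38 and 11.43 and fell by 0.73 in WT mice (SE 0.052, limma adjp = 7.48e-18) and by 0.79 in HET mice. No mouse of one age reached the range of the other in either gene. Map1lc3a rose by 1.01 and 1.05. Map1lc3b rose by 0.21 and 0.19, but 29.8% of its 50-base words also occur in the gene Gm6055, so its level is uncertain, and its difference was 0.05 and -0.00283 after quantile normalization and 0.00522 and -0.04 after centring, with no call in either.

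The genes that attach ATG8 to lipid changed least. Atg7, the activating enzyme of the conjugation, rose by 0.33 in WT mice and by 0.12 in HET mice, and Atg3, the enzyme that hands ATG8 to the lipid, by 0.25 and 0.27. Centring samples on their median gene turned the HET difference of Atg7 to -0.11 and took the call from Atg3. Both cargo receptors rose, Sqstm1 (p62) by 1.35 in WT mice and Optn, a receptor for mitochondria and bacteria, by 1.39 and 1.45.

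**Figure D2:**
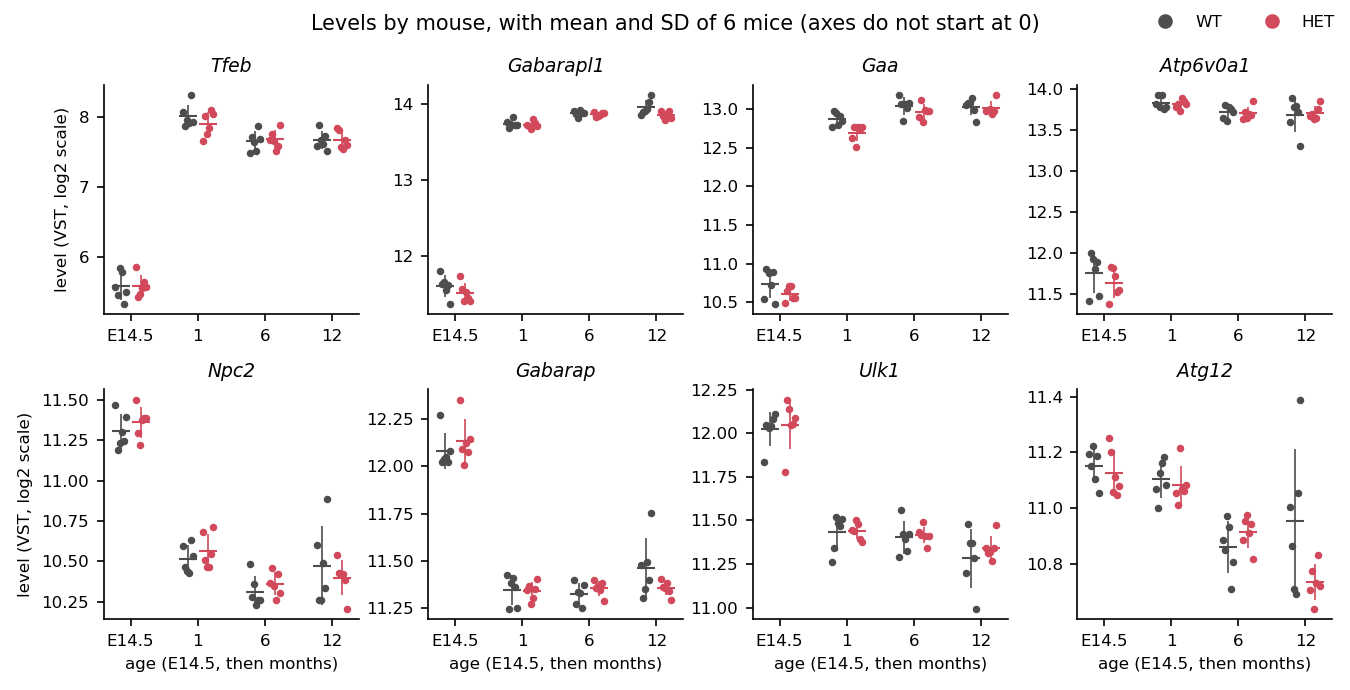
Level of 8 genes in every mouse (VST, log2 scale, vertical axes do not start at 0) by age, for WT (grey) and HET (red) mice, with the mean and SD of 6 mice. Tfeb, Gabarapl1, Gaa and Atp6v0a1 step up between E14.5 and 1 month, Npc2, Gabarap and Ulk1 step down, and Atg12 is lower at 6 than at 1 month.

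The 7 members with TCACGTGA in the promoter window all rose in both genotypes, by 0.25 (Atg3) to 1.83 (Atp6v1a) in WT mice. This is a description of 7 genes among the 31 that rose. With samples centred on their median gene, the Atg3 difference was 0.04 in WT mice and 0.03 in HET mice and was not called (limma adjp = 0.568 and 0.602). Of 123 other genes of the pathway, taken from a fixed list, 94 rose and 17 fell in WT mice and 94 rose and 18 fell in HET mice, beside the 44.1% and 41.9% (WT) and 44.1% and 41.8% (HET) of all genes. Besides Atp6v1g2, those with the lowest p in both genotypes were Arsb, an arylsulfatase of glycosaminoglycan breakdown, at 2.47 in WT mice and 2.48 in HET mice, and the pump subunit Atp6v1c1 at 2.28 and 2.34. Other pathway genes of the autophagy machinery rose in 25 of 37 cases and fell in 7 in WT mice. Those of the lysosome rose in 44 of 52 cases and fell in 3, and the difference between these lists was not tested.

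The cell types of the cortex changed over the same step. The 8 neuronal markers summed to 92.2 to 94.7 in WT mice at E14.5 and to 116 to 117 at 1 month, and to 92.3 to 95.0 and 115 to 117 in HET mice. The sums of the 9 astrocyte markers went from 75.9 to 80.0 up to 118 to 119.95 in WT mice and from 77.2 to 78.8 up to 117 to 119 in HET mice. The 9 oligodendrocyte markers summed to 56.0 to 58.9 and then 115 to 118 in WT mice, and to 56.9 to 58.6 and then 114 to 117 in HET mice, with Opalin alone within 0.5 of the floor, in HET mice at E14.5. The 10 microglial markers summed to 67.0 to 70.5 and then 92.8 to 95.5 in WT mice, and to 65.7 to 71.2 and then 91.8 to 94.6 in HET mice. On average per gene, these neuronal, astrocyte, oligodendrocyte and microglial lists each moved by more than the members did. The 7 progenitor markers fell from sums of 81.8 to 87.3 to sums of 52.8 to 56.4 in WT mice, and from 82.6 to 86.8 to 52.8 to 56.6 in HET mice. The part of these cell types in the members' rise was not tested.

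Centring each sample on its median gene shifted the median of all genes in this step to -0.17 in WT mice and -0.19 in HET mice, and the members' median then was 0.60 and 0.61, with 28 higher and 9 lower in WT mice and 27 higher and 10 lower in HET mice. Leaving out the 3 WT libraries at E14.5 with high midbrain, hindbrain and spinal cord markers left 31 higher and 7 lower in WT mice, with a median of 0.85. Replicates 1 to 3 alone gave 30 higher and 7 lower in WT mice, and replicates 4 to 6 alone 31 and 7.

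Between 1 and 6 months the members changed less, and among those called more fell than rose. In HET mice the share of members that rose lay near that of all genes. In WT mice 5 of 40 rose and 10 fell, against 9.06% and 9.54% of all genes, and in HET mice 4 rose and 8 fell, against 9.78% and 9.63%. The members' median was -0.03 in WT mice and 0.0072 in HET mice, beside 0.0063 and 0.0051 over all genes. The 1-month mice enter both this step and the one before it. Judged at an adjusted p below 0.05, 1 member rose and 6 fell in WT mice. In HET mice Gaa, Npc1 and Sqstm1 rose and 5 members fell at this threshold. Replicates 1 to 3 alone gave 0 calls in WT mice with limma, and replicates 4 to 6 alone gave 5 that fell. In HET mice replicates 1 to 3 alone gave 2 that rose and 0 that fell, and replicates 4 to 6 alone gave 0 and 2.

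**Figure D3:**
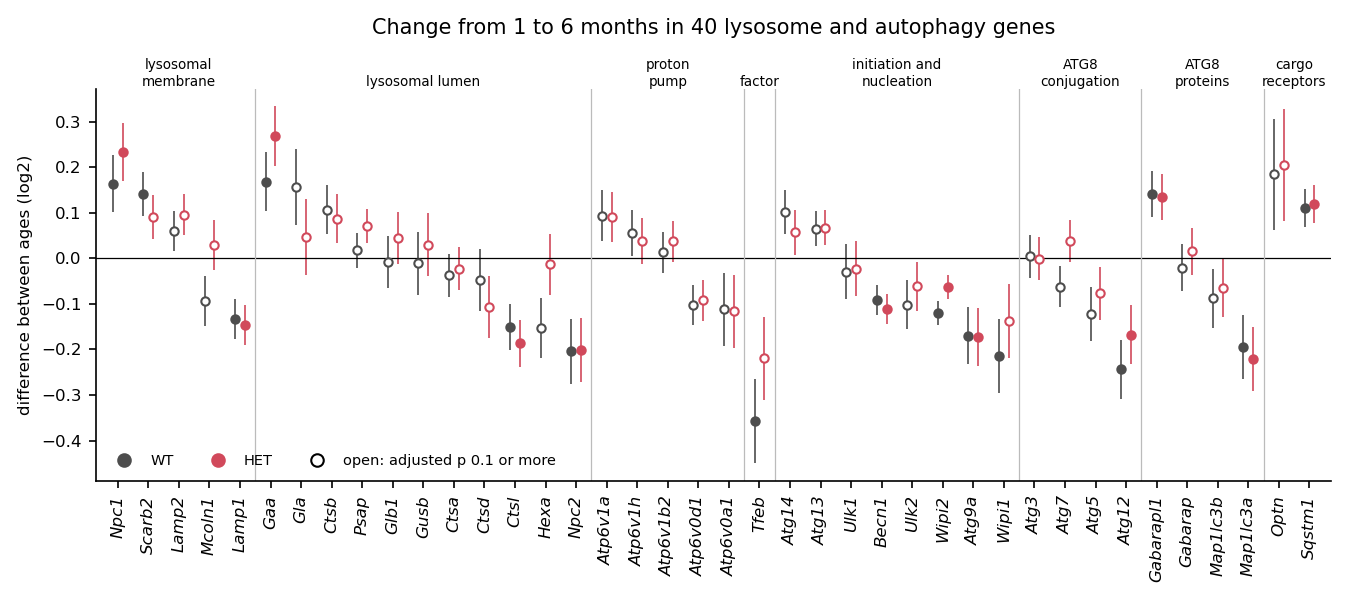
Change from 1 to 6 months (difference on the log2 scale, vertical axis) for each of the 40 genes, grouped by role, in WT (grey) and HET (red) mice; bars are the SE from limma and open points have an adjusted p of 0.1 or more. The filled points lie between -0.36 (Tfeb in WT mice) and 0.27 (Gaa in HET mice).

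The genes that rose in both genotypes were Gaa, Npc1, Gabarapl1 and Sqstm1, and Scarb2 rose in WT mice. Gaa had the largest rise of the called genes in each genotype, by 0.17 in WT mice (SE 0.065, limma adjp = 0.0793) and by 0.27 in HET mice (adjp = 0.00335). In HET mice its level went from 12.51, 12.75 and 12.77 to 12.83, 12.97 and 13.12, without overlap. Npc1 rose by 0.16 and 0.23 (adjp = 0.0758 and 0.00859 with limma), Gabarapl1 by 0.14 in each genotype (adjp = 0.0507 and 0.0633) and Sqstm1 by 0.11 and 0.12 (adjp = 0.0707 and 0.0493). Several of these calls were lost in other fits. Quantile normalization ended those of Gabarapl1 (limma adjp = 0.234 and 0.216) and Sqstm1 (adjp = 0.246 and 0.191), and centring ended those of Sqstm1 in both genotypes, of Npc1 in WT mice and of Gabarapl1 in HET mice. Leaving out 1 of 12 mice ended the WT call of Npc1 in 8 fits, of Gaa in 7, of Sqstm1 in 6 and of Gabarapl1 in 1, and the HET call of Gabarapl1 in 4 and of Sqstm1 in 2. The HET calls of Gaa and Npc1 and the WT call of Scarb2 passed in each fit that left out 1 mouse. The HET rise of Npc1 was 0.34 in replicates 1 to 3 alone and 0.13 in replicates 4 to 6 alone (limma adjp = 0.0722 and 0.307). That of Gaa was 0.32 and 0.22 (limma adjp = 0.099 and 0.157), and that of Sqstm1 was 0.18 and 0.06.

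Tfeb fell by 0.36 in WT mice, the largest fall of the step, from 7.87, 7.95 and 8.32 at 1 month to 7.49, 7.67 and 7.87 at 6 months (SE 0.092, limma adjp = 0.00538). In HET mice its difference was -0.22 and did not pass (limma adjp = 0.105). The HET difference did pass after quantile normalization (-0.26, limma adjp = 0.0624). It also passed without a trend (limma adjp = 0.0951) and with the filter at 1.5 above the floor (adjp = 0.0961). Among fits that left out 1 mouse it passed without HET replicate 1 or 3 at 1 month or replicate 6 at 6 months. After centring it did not pass (-0.23, limma adjp = 0.118). At 7.87 the highest WT mouse at 6 months lay just below the lowest at 1 month, whereas the HET ranges overlapped.

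Atg12, the ubiquitin-like partner of Atg5, fell by 0.24 in WT mice and by 0.17 in HET mice (limma adjp = 0.00734 and 0.0755). Its WT levels were 11.00, 11.11 and 11.18 at 1 month and 10.71, 10.87 and 10.97 at 6 months. The WT difference was -0.16 in replicates 1 to 3 alone and -0.33 in replicates 4 to 6 alone (limma adjp = 0.288 and 0.0645). Npc2 fell by 0.20 in each genotype (limma adjp = 0.045 and 0.0484) and Map1lc3a by 0.20 and 0.22 (adjp = 0.0556 and 0.0278). Wipi1, which binds the lipid made by the nucleation complex, fell by 0.21 in WT mice (limma adjp = 0.0687), and its HET difference was -0.14 (adjp = 0.281). The fall of Npc2 continued the one before 1 month, whereas Map1lc3a, Tfeb and Wipi1 had risen there. Ctsl, a cysteine protease of the lysosome, fell by 0.15 and 0.19 (limma adjp = 0.0417 and 0.00978) and Atg9a by 0.17 in each (adjp = 0.065 and 0.0587). Lamp1, Becn1 and Wipi2 fell in both genotypes, each by 0.15 or less. Of these falls, quantile normalization ended the calls of Npc2 and Lamp1 in both genotypes, of Atg12 and Wipi2 in HET mice and of Map1lc3a and Ctsl in WT mice, and centring ended those of Atg9a and Becn1 in both and of Wipi2 in HET mice. Leaving out 1 of 12 mice ended the WT call of Wipi1 in 7 fits, the WT call of Map1lc3a in 2 and of Npc2 in 1, and the HET call of Atg12 in 6, of Atg9a in 4 and of Npc2 in 3, while the WT calls of Tfeb and Atg12 and the HET calls of Map1lc3a and Ctsl passed in each. The WT call of Atg9a was lost without 1-month replicate 2 or 4 or 6-month replicate 1, 3 or 5. That of Becn1 was lost without 1-month replicate 4 or 6-month replicate 1 or 5. When 1 mouse was left out, the HET call of Wipi2 (-0.06, limma adjp = 0.0996) passed only without replicate 5 at 1 or 6 months. Robust variance estimates, a replicate set covariate and a replicate block each ended it.

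Of the 123 other pathway genes, 14 rose and 14 fell in WT mice, and 12 rose and 13 fell in HET mice, close to the shares of all genes (9.06% and 9.54% in WT mice, 9.78% and 9.63% in HET mice). The genes named next are those with the lowest p and are no result about the list. Gm2a, the activator protein with which hexosaminidase A degrades GM2 ganglioside, fell by 0.32 in WT mice and by 0.30 in HET mice (limma adjp = 0.000194 and 0.000477). Grn, the progranulin gene, fell by 0.26 in WT mice (limma adjp = 0.000234), and Vps33a, a subunit of the tethering complexes for fusion with the lysosome, rose by 0.24 (adjp = 0.000322). In HET mice Vps11, of the same complexes, rose by 0.21 (limma adjp = 0.000706) and Galc, which degrades galactosylceramide, by 0.19 (adjp = 0.00111). Oligodendrocyte markers were lower at 6 than at 1 month, with sums of 109 to 111 in WT mice and 106 to 109 in HET mice at 6 months, and their part in these changes was not tested.

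Between 6 and 12 months limma called 0 of 40 members in either genotype, against 0.0404% of all genes in WT mice and 0.578% in HET mice. At an unadjusted p below 0.05 there were 8 members in WT mice and 3 in HET mice, where 9.42% and 11.5% of all genes passed. Of the other pathway genes 0 of 123 passed in WT mice (limma, with 10 at an unadjusted p below 0.05) and 2 in HET mice. Naglu, which degrades heparan sulfate, rose by 0.39 in HET mice (SE 0.096, limma adjp = 0.0785), and Snap29, a fusion protein of the autophagosome, fell by 0.23 (SE 0.050, adjp = 0.0577).

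WT and HET mice were next compared at each age. limma called 0 of 40 members at each of the 4 ages, where, from the youngest age to the oldest, it called 0.00593%, 0.139%, 0.0927% and 0.0463% of all genes. At an unadjusted p below 0.05 there were 2, 4, 4 and 11 members, while 4.56%, 8.8%, 7.59% and 11.6% of all genes passed. The members' median HET minus WT difference was -0.02, -0.01, -2.65e-05 and -0.04 at the 4 ages, beside 0.001, -0.0029, -0.00088 and 0.0046 over all genes. The 6 WT and 6 HET mice did not overlap for Atg7 at E14.5 and for Wipi2 at 1 and 12 months, a separation seen in 0.261%, 0.825% and 0.868% of all genes at those ages. Of the 123 other pathway genes limma called 0 at each age, with 3, 14, 3 and 10 at an unadjusted p below 0.05.

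**Figure D4:**
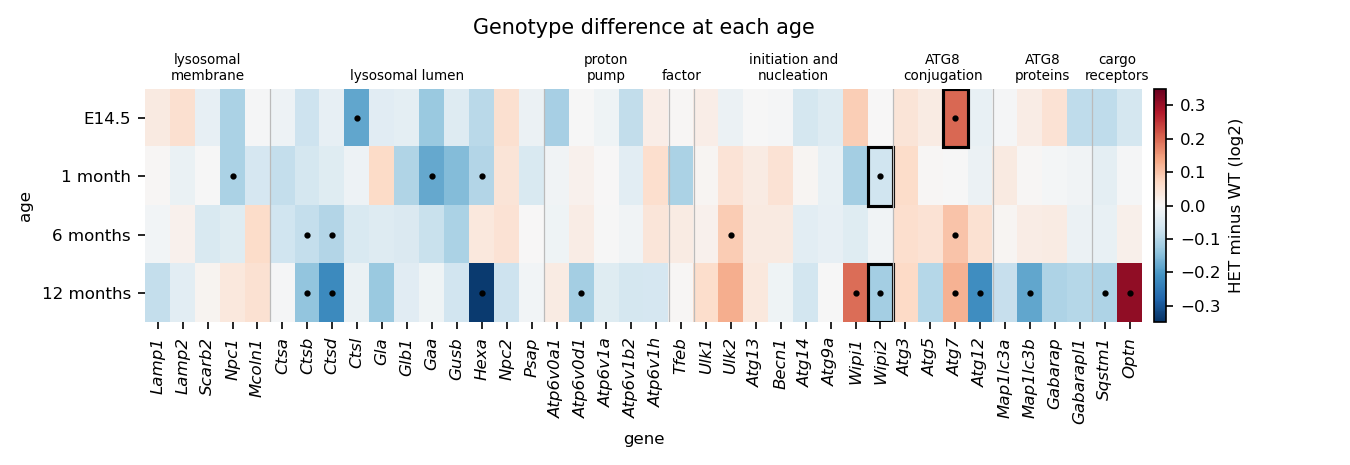
HET minus WT difference (log2, color) of the 40 genes at the 4 ages, with a dot for an unadjusted p below 0.05 and a frame where the 6 WT and 6 HET mice do not overlap. No gene passed an adjusted p of 0.1, 11 dots fall at 12 months, and the frames are Atg7 at E14.5 and Wipi2 at 1 and 12 months.

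At E14.5 Atg7 (chromosome 6, 114593149 to 114810431, plus strand, mm9) stood at 9.16, 9.26 and 9.39 in WT mice and at 9.42, 9.46 and 9.55 in HET mice. The lowest HET mouse lay above the highest WT mouse. The difference was 0.20 (SE 0.052, limma adjp = 0.881), or 1.15-fold, and its adjp was 0.037 when the 48 samples were fitted together, with a common spread over ages, a fit in which 0.537% of all genes were called. Without the 3 WT libraries high in midbrain, hindbrain and spinal cord markers it was 0.20 (SE 0.0691). At 1 month the Atg7 difference was -0.00013, at 6 months 0.10 and at 12 months 0.12, and the levels of WT and HET mice overlapped at each postnatal age.

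Ctsl was at 10.18, 10.25 and 10.36 in WT mice at E14.5 and at 9.95, 10.04 and 10.27 in HET mice, with 5 of 6 HET mice below all WT mice. The difference was -0.18 (SE 0.058, limma adjp = 0.982), and its adjp was 0.132 when the 48 samples were fitted together. Gaa differed by -0.13 at E14.5, and by 0.03 without the same 3 WT libraries. The members' median at E14.5 likewise went from -0.02 to 0.0036 without them.

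At 1 month Gaa (chromosome 11, 119129201 to 119146768, plus strand, mm9) had the lowest p of the members. Its levels were 12.76, 12.88 and 12.98 in WT mice and 12.51, 12.75 and 12.77 in HET mice, which overlapped narrowly. The difference was -0.18 (SE 0.051, limma adjp = 0.306, exact permutation p = 0.00866), and it was -0.26 in replicates 1 to 3 and -0.09 in replicates 4 to 6. Hexa and Npc1 differed by -0.10 and -0.11 (limma adjp = 0.493 and 0.499). Wipi2, a phosphoinositide-binding protein that recruits the conjugation machinery, stood at 11.55, 11.58 and 11.63 in WT mice and at 11.46, 11.53 and 11.55 in HET mice, a difference of -0.07 (SE 0.030, limma adjp = 0.525).

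At 6 months the lowest p values were those of Ctsd, with a difference of -0.10 (limma adjp = 0.515), Ulk2 with 0.09 (adjp = 0.583) and Ctsb with -0.08 (adjp = 0.62). In Ctsd 4 of 6 HET mice lay below all WT mice, with levels from 12.94 to 13.08 in WT mice and from 12.87 to 12.97 in HET mice. The groups overlapped for each of the 40 members at this age, where 0.527% of all genes did not overlap.

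At 12 months the differences of the members were the widest of the 4 ages, from -0.33 to 0.31. Hexa, the alpha subunit of the hexosaminidase that degrades GM2 ganglioside (chromosome 9, 59387474 to 59412914, plus strand, mm9), was at 10.05, 10.33 and 10.66 in WT mice and at 9.89, 10.01 and 10.14 in HET mice. In 4 of 6 HET mice it lay below all WT mice. The difference was -0.33 (SE 0.087, limma adjp = 0.208, exact permutation p = 0.00649), or 0.793-fold. It was -0.19 in replicates 1 to 3 alone and -0.48 in replicates 4 to 6 alone. Without WT mouse 3, the WT mouse with the lowest Hexa level, it was -0.39 and passed (limma adjp = 0.0447). That mouse also had the lowest mean of 6 heat shock genes of the 12 mice, at 11.03.

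Wipi2 (chromosome 5, 143105496 to 143146542, plus strand, mm9) was again lower in each HET mouse than in each WT mouse at 12 months. Its levels were 11.46, 11.52 and 11.53 in WT mice and 11.37, 11.39 and 11.42 in HET mice. The difference was small, at -0.12 (SE 0.040, limma adjp = 0.293), or 0.921-fold. At E14.5 and 6 months its differences were 0.00049 and -0.01, with overlapping groups.

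The lumen members lay lower in HET mice at 12 months in 11 of 11 cases, of which 3 had an unadjusted p below 0.05, and limma called 0. Their median difference was -0.07, beside 0.0046 over all genes, of which 48.6% lay below 0 and 11.6% had such a p. Ctsd, the aspartic protease of the lysosome, was at 12.94, 13.12 and 13.53 in WT mice and at 12.89, 12.91 and 13.07 in HET mice, a difference of -0.22 (SE 0.086, limma adjp = 0.34) that was -0.09 in replicates 1 to 3 and -0.36 in replicates 4 to 6. Some of its sequence is shared with the overlapping transcript 6330512M04Rik (4.86% of its 50-base words). Ctsb differed by -0.14 (SE 0.060, limma adjp = 0.39), and 16.2% of its exon bases are overlapped by Fdft1 on the other strand.

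The 4 ATG8 proteins had differences from -0.18 to -0.08 at 12 months, beside the 48.6% of all genes below 0, and limma called 0 of them. Map1lc3b was the 1 of the 4 with an unadjusted p below 0.05, beside 11.6% of all genes, at 11.96, 12.07 and 12.52 in WT mice and 11.85, 11.98 and 12.01 in HET mice, a difference of -0.18 (SE 0.081, limma adjp = 0.4). Atg12 was at 10.69, 10.94 and 11.39 in WT mice and at 10.64, 10.73 and 10.83 in HET mice, a difference of -0.22 (SE 0.093, limma adjp = 0.388). The WT mice spread far more widely than the HET mice in both.

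Optn had the largest positive difference at 12 months. It was at 8.12, 8.43 and 8.87 in WT mice and at 8.58, 8.80 and 8.89 in HET mice, a difference of 0.31 (SE 0.107, limma adjp = 0.303). The ranges overlapped, since 2 WT mice lay within the HET range. Tfeb differed by 0.0038 (limma adjp = 0.991). The 13 other pump genes, like 4 of the 5 member subunits, had HET minus WT differences below 0 in 13 of 13 cases at 12 months, with a median of -0.08, where 48.6% of all genes lay below 0. At an unadjusted p below 0.05 there were 2 of the 13, beside 11.6% of all genes, and limma called 0.

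With the 48 samples fitted together, Hexa, Wipi2, Atg12 and Ctsd were lower in HET mice at 12 months (limma adjp = 0.00689, 0.0186, 0.0794 and 0.0819), where this fit called 3% of all genes. The same fit called 0 members at 1 and 6 months, where it called 0.214% and 0.0924% of all genes. The differences are the same as in the fit of 12 mice, and the spread differs, since the fit of 12 mice uses that of the 12-month mice. The median SD of the members was 0.122 among WT mice at 12 months and 0.064 among HET mice, and from 0.057 to 0.111 in the other groups.

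Heat shock genes moved with this spread. The mean of 6 heat shock genes was 11.58, 11.88, 11.96 and 11.77 in WT mice 1, 2, 5 and 6 at 12 months, 11.03 and 11.13 in WT mice 3 and 4, and 11.07 to 11.17 in HET mice. Their summed level ran from 66.2 to 71.8 in WT mice and from 66.4 to 67.0 in HET mice, and 0 of the 6 genes lay within 0.5 of the floor. The 4 WT mice with the high heat shock means had the 4 lowest Optn levels of the 12 mice (8.12, 8.23, 8.42 and 8.44). They also held the 3 highest Hexa levels (10.42, 10.46 and 10.66) and the 4 highest Atg12 levels (10.87 to 11.39).

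**Figure D5:**
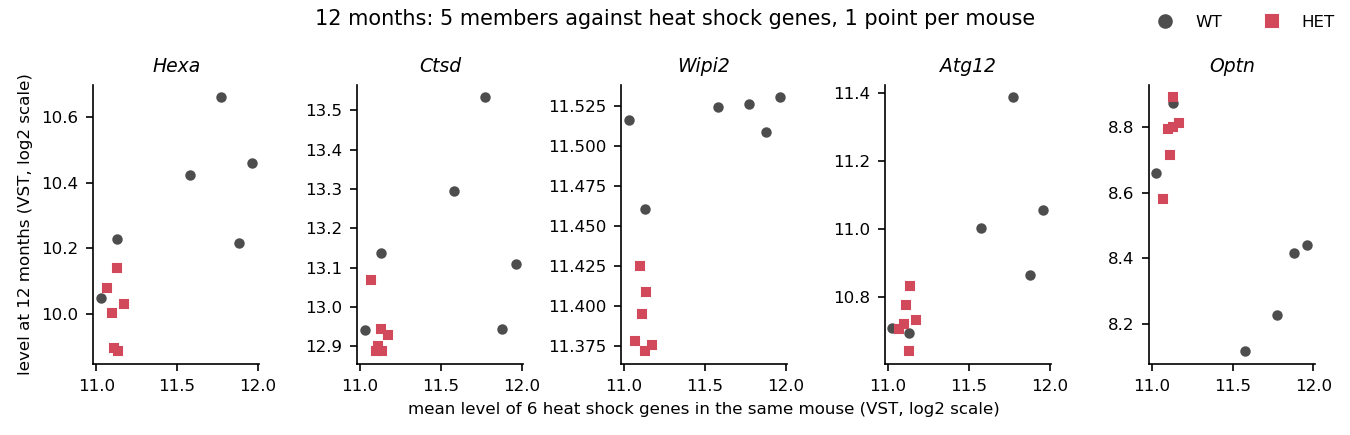
Level of 5 genes in each 12-month mouse (vertical axes, VST, log2 scale, not from 0) against the mean level of 6 heat shock genes in the same mouse (horizontal axis). WT mice 1, 2, 5 and 6 lie to the right at 11.58 to 11.96, and HET mice and the other WT mice lie at 11.03 to 11.17. Of the 5 genes only Wipi2 separates all WT from all HET mice. No HET mouse lies at the high heat shock levels, so the genotypes cannot be compared there.

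The heat shock mean was also fitted as a covariate, chosen after seeing the data. The 12-month difference then was -0.18 for Hexa, -0.16 for Ctsd, -0.10 for Wipi2, -0.02 for Atg12, 0.05 for Atg7 and 0.11 for Optn. High heat shock means occurred in WT mice alone, so this fit cannot separate heat shock level from genotype. The paper reports lower expression of heat shock signaling and chaperone genes in its oldest mutant mice. The covariate may therefore itself follow genotype, and the part of heat shock in these differences was not tested. The 10 microglial markers, cells rich in lysosomes, summed to 92.4 to 96.6 in WT mice and 93.2 to 95.1 in HET mice at 12 months, and with their mean as a covariate the differences were -0.32 for Hexa and -0.20 for Ctsd. Markers of neighbouring regions and cells are given for this age without a test of the lists. Of all genes, 48.6% lay below 0 in HET minus WT. The 8 striatal markers summed to 85.8 to 89.4 in WT mice and 80.4 to 87.7 in HET mice, with 8 of 8 lower in HET mice (median difference -0.32). The 5 choroid plexus markers summed to 32.7 to 39.2 and 29.2 to 41.9, with 5 of 5 lower, although the HET range enclosed the WT range. The 7 progenitor markers summed to 48.4 to 49.5 and 49.9 to 56.2, with 6 of 7 higher. None of these genes lay within 0.5 of the floor. The part of the striatal, choroid plexus and progenitor markers in the genotype differences was not tested.

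Whether the genotype difference itself changed with age was tested in the fit of all 48 samples. limma called 0 of 40 members for a difference between 12 months and E14.5, 1 month or 6 months, where it called 0.0635%, 0.00578% and 0.0578% of all genes, and 8, 5 and 6 members had an unadjusted p below 0.05, beside 11.5%, 11.1% and 8.68% of all genes. The 3 comparisons share the 12-month mice. Against E14.5 the lowest p values were those of Wipi2, whose HET minus WT difference changed by -0.12 (SE 0.037, limma adjp = 0.215), Hexa (-0.24, SE 0.093, adjp = 0.304) and Map1lc3b (-0.21, SE 0.092, adjp = 0.371). Against 6 months Hexa changed by -0.37 (SE 0.093, limma adjp = 0.201), and it passed without WT mouse 3 at 12 months (-0.43, adjp = 0.0187), without WT mouse 4 (-0.40, adjp = 0.0725), and with samples centred on their median gene (-0.42, adjp = 0.0539). Without WT mouse 3, Atg12 passed as well (-0.32, limma adjp = 0.0983). WT mice 3 and 4 were those without high heat shock means (11.03 and 11.13, beside 11.07 to 11.17 in HET mice). The part of this in the passes was not tested.

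Some members share bases with neighbours, which limits their values. Tfeb had no entry by symbol in the annotation used, so neither its exon overlaps nor its shared 50-base words could be checked. Becn1, the beclin of the nucleation complex, has 43.9% of its exon bases overlapped by Cntd1 on the other strand, and Sqstm1 and Ctsa have 17.3% and 10.5% overlapped by 3010026O09Rik and Pltp. The sources name different library kits, one that keeps strand and one that does not, so reads from such a pair may not have been told apart.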

How the data were processed

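The authors filtered and trimmed the reads of 48 cortical libraries, aligned them to mm9 (STAR 2.5.2b), quantified transcripts (Salmon 0.11.3) and transformed the counts with DESeq2 (the submitters' processing notes list DESeq 1.22.2). What they deposited is a VST table, on the log2 scale, with 24444 genes. Over the 48 samples, though not within each group, the means of replicates 1 to 3 and 4 to 6 were equal to 3.38e-14, and 15.7% of values lay at the floor of 2.1433. The paper states that its differential expression model corrected for batch effects, but not whether the deposited values were adjusted. The main limma fits held no term for these replicate sets. The table holds no counts, so depth per gene is unknown and precision is given by 6 mice per group.

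Samples were grouped by their labels. limma 3.58.1 (R 4.3.3) with a variance trend was fitted on genes with a mean at least 0.5 above the floor, for genotype on the 12 samples of each age, and for age steps and differences of genotype effects on all 48 samples. Calls used a Benjamini-Hochberg adjusted p below 0.1 over all genes. The fits were tested on simulated data. Exact permutation tests were two-sided, over all splits of 12 mice.

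The members, their roles and the list of 123 other pathway genes were chosen with earlier results of these data known. Genes were named by a rule: called members, the lowest p values, members without overlap, the largest changes in each age step, Tfeb, the ATG8 proteins and Chd8. The pump subunits, small groups completed by name (Ulk2, Atg14, Atg3, Atg13, Atg5, Lamp1, Becn1) and the members with the promoter motif were named after their values were seen. Figures were drawn with matplotlib 3.10.9 (Python 3.11.15). Alternatives tried were a replicate block, a joint fit of the 48 samples with and without it, other filters, limma without a trend or with robust estimates, quantile normalization, median centring, an adjusted p below 0.05, replicate sets, covariates (read depth, markers) and leaving out each mouse.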

Additional observations from a re-analysis of the deposited data

Results flagged for a closer look

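In 19 of 208 groups of 6 mice, 1 mouse lay far from the other 5 by Dixon's criterion for the gap over the range, where chance gives about 1 in 20. Chd8 was low at 11.6 in HET mouse 1 at E14.5 and at 11.36 in WT mouse 6 at 12 months, and high at 11.17 in HET mouse 6 at 12 months. HET mouse 1 at E14.5 was also high for Hexa at 9.63 and low for Ulk1 at 11.78. WT mouse 1 at E14.5 was low for Ulk1 at 11.83 and high for Gabarap at 12.27, and WT mouse 6 at E14.5 was low for Optn at 6.07, where the other 5 WT mice lay between 7.10 and 7.32. Wipi2 was low at 10.8 in HET mouse 3 at E14.5 and at 11.46 in WT mouse 4 at 12 months, the latter still above all HET mice of that age.

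At 1 month, HET mouse 3 was high for Atg12 at 11.22 and low for Psap at 14.97, and HET mouse 2 was low for Map1lc3b at 11.98. At 6 months, WT mouse 2 was high for Npc1 at 11.36, and HET mouse 6 was high for Atg7 at 9.73 and for Atp6v0a1 at 13.86. At 12 months, HET mouse 1 was high for Ctsd at 13.07, HET mouse 6 was high for Gaa at 13.18, and HET mouse 3 was low for Ulk2 at 11.89.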

How the results depend on the processing

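The counts of members for the step from E14.5 to 1 month stayed within 1.5 times of their values in every alternative run. For genotype, one fit of all 48 samples gave 1 member at E14.5 (Atg7) and 4 at 12 months, and with a replicate block as well it gave 2 (Atg7, Ctsl) and 7 (Hexa, Ctsd, Wipi2, Atg12, Optn, Ctsb, Map1lc3b), while all genes called at these ages went to 274 and 1006. The heat shock covariate gave 1 at 1 month (Gaa). From 1 to 6 months, higher and lower counts in WT mice were 3 and 6 with quantile normalization, 3 higher with centring, 1 and 6 at an adjusted p below 0.05, 0 and 0 in replicates 1 to 3, and 0 and 5 in replicates 4 to 6. In HET mice they were 2 and 5 with quantile normalization and with centring. They were 2 and 0 in replicates 1 to 3, and 0 and 2 in replicates 4 to 6. At an adjusted p below 0.05, 5 were lower in HET mice, and Gaa, Npc1 and Sqstm1 were higher. From 6 to 12 months 1 member was lower in HET mice (Atg12) with centring and in the 12 samples of both groups alone. The difference of effects between 12 and 6 months gave 1 (Hexa) with centring. The cause of these shifts was not tested beyond what each alternative changes.

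Leaving out each mouse in turn gave 0 to 1 member for genotype at 12 months (Hexa, without WT replicate 3). From 1 to 6 months it gave 2 to 5 higher in WT mice (at most 3 without 1-month replicate 1, 4, 5 or 6 or 6-month replicate 1, 2 or 4), and in HET mice 2 to 5 higher (2 without 1-month replicate 3 or 6-month replicate 1) and 5 to 8 lower (5 without 1-month replicate 4 or 6 or 6-month replicate 4). From 6 to 12 months in WT mice it gave 0 to 1 higher (Hexa, without WT replicate 3 or 4 at 12 months). It gave 0 to 2 for the difference between 12 months and E14.5 (Optn and Wipi2, without WT replicate 6 at E14.5) and 0 to 2 for that between 12 and 6 months (Hexa and Atg12, without WT replicate 3, and Hexa, without WT replicate 4, at 12 months).

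In the step from E14.5 to 1 month in HET mice, 3 called rises turned sign. Centring took Atg7, Map1lc3b and Glb1 from 0.12, 0.19 and 0.18 to -0.11, -0.04 and -0.05, and quantile normalization took Map1lc3b to -0.00283. Among the genotype differences, that of Gaa at E14.5 turned from -0.13, and the others that turned had lain within 0.05 of 0. With centring, Ctsd and Atg12 at E14.5 were 0.01494 and 0.01821, Atg7 and Atg12 at 1 month 0.0232 and 0.001922, and Wipi2 at 6 months 0.002942. Quantile normalization gave 0.006472 for Atg7 at 1 month. Replicates 1 to 3 gave 0.02949 for Atg12 at 1 month, and replicates 4 to 6 gave -0.008669 for Wipi2 at E14.5, 0.07575 for Atg7 at 1 month and 0.006249 for Wipi2 at 6 months. The read depth covariate gave -0.00231 for Wipi2 at E14.5, the covariate of midbrain, hindbrain and spinal cord markers gave -0.02355 for Wipi2 and 0.01184 for Gaa at E14.5 and 0.0126 for Atg7 at 1 month, and the microglia covariate gave 0.009775 for Ctsd at 1 month. Without the 3 WT libraries high in midbrain, hindbrain and spinal cord markers, an alternative chosen like the heat shock covariate after seeing the data, Wipi2, Atg12 and Gaa at E14.5 were -0.02654, 0.007652 and 0.02595. Leaving out mice gave -0.08388 to 0.007831 for Ctsd and -0.009451 to 0.01284 for Wipi2 at E14.5, and -0.06428 to 0.004912 for Ctsd and -0.03403 to 0.03263 for Atg7 at 1 month.

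Same-numbered WT and HET mice had mean correlations of 0.232, 0.018, 0.045 and -0.034 at the 4 ages after removal of group means, and not all pairs passed 0.1 at any age, so the numbers were not taken as pairs. The replicate block in the fit of each age gave 0 members at each age (limma, with 2, 13, 30 and 2 genes called in all), where no block gave 1, 24, 16 and 8. For the age steps the block gave 31 higher and 7 lower in WT mice from E14.5 to 1 month, 31 and 8 in HET mice, 5 and 10 and then 4 and 7 from 1 to 6 months, and 0 for each later step and for each difference of effects.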
